A study of Ananas comosus with 8 samples.

Results

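Malate dehydrogenase (MDH) interconverts oxaloacetate and malate, and 9 dispersed MDH genes of pineapple were compared here between 2 parts of the leaf, its green tip and its white base (below also the tip and the base). They were taken by gene identifier from the 14 MDH genes that the study assayed by qRT-PCR in its work on crassulacean acid metabolism (CAM). The 4 MDH genes with consecutive identifiers, Aco017525 to Aco017528, were set apart, as was Aco008626, and all 9 remaining identifiers had a row in the deposited matrix of 27024 genes. In the gene annotation used by the study, the genes with a stated position lay on different linkage groups. The position of Aco010232 was not used here.

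In CAM plants such as pineapple, phosphoenolpyruvate carboxylase (PEPC) fixes carbon dioxide at night into oxaloacetate, and MDH reduces the oxaloacetate to malate, which is kept in the vacuole as malic acid. By day the malate is released and decarboxylated behind closed stomata, by malic enzyme or, after MDH has turned it back into oxaloacetate, by phosphoenolpyruvate carboxykinase. Plants carry separate MDH enzymes in the cytosol, mitochondrion, peroxisome and chloroplast, where they also serve respiration, photorespiration, fatty acid breakdown and the export of reducing power. The sources used here call each of the 9 genes MDH and do not give its compartment or its cofactor, so none is assigned below.

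The RNA came from the 'D' leaf of field-grown Ananas comosus var. comosus cultivar MD-2, with no transgene, treatment or plant age given in the labels. The tip is the photosynthetic end of the leaf and the base its non-photosynthetic end. The labels list 2 RNA-seq libraries of each tissue and give no time of day. The methods describe a pair of RNA-seq libraries per tissue for the mid-morning sampling alone. The study sampled the leaf at several times of day and describes rhythmic expression of CAM genes. How the ratios, shares and order below change over the day cannot be told from these values. Each gene has 1 value per tissue, the authors' FPKM, so no spread between libraries, SD or test can be given for any difference below. By its usual definition FPKM is the fragments of a transcript divided by its length and by the mapped fragments of the library. Which tool made these values, and so whether it also scaled the libraries to each other, is not known here.

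Both tissues are mixtures of cells, and fewer cells of a type cannot be told apart from less RNA per cell. All 3 beta carbonic anhydrases, which hydrate carbon dioxide, were more than 2-fold higher in the tip as deposited. Their summed levels were 374 FPKM there and 26.0 FPKM in the base. The study itself reports them as high in the green tip, so they are no independent check of the tissue labels. The alpha carbonic anhydrases summed to 46.9 FPKM in the tip and 6.86 FPKM in the base, but the gamma carbonic anhydrases to 79.8 and 88.0 FPKM. In its results the study also describes 2 gamma carbonic anhydrases as high in the tip and low in the base. In the deposited values none of the 3 gamma genes was 2-fold or more higher in the tip. FPKM does not carry the sequencing depth, and no depth was used here. Over all genes the FPKM added up to 1136442 in the tip but to 611241 in the base, 1.86 times less. The 100 most abundant genes made up 50.0% of the first total and 18.7% of the second. The share of an MDH gene within its tissue is not affected by this imbalance, whereas a ratio between the tissues is.

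The summed level of the 9 MDH genes was 1682 FPKM in the tip and 615 FPKM in the base, a 2.74-fold difference. The higher sum of the tip came from Aco013935, Aco004996 and Aco010232. These 3 genes together had 1438 FPKM in the tip and 319 FPKM in the base, and they made up 85.5% and 51.9% of the MDH sum. The other 6 genes together were lower in the tip, with 244 FPKM against 296 FPKM in the base.

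**Figure D1:**
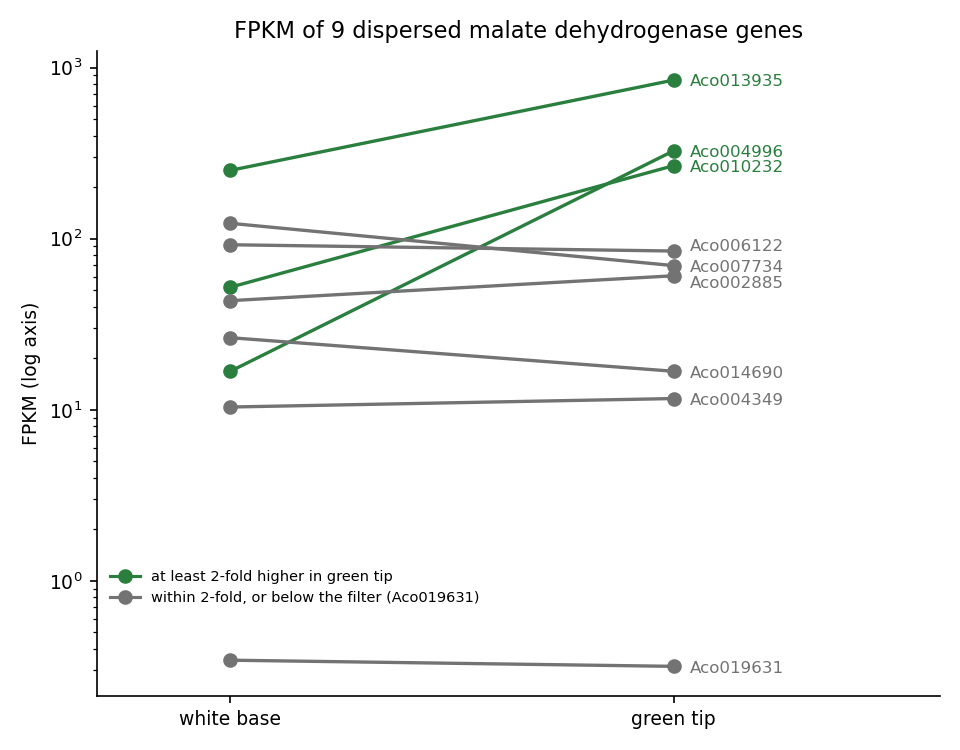
FPKM of each of the 9 MDH genes (vertical log axis) in the white base and the green tip, with 1 deposited value per tissue and a line joining the values of a gene. Aco004996 goes from 16.8 to 326 FPKM and crosses 5 other genes, Aco013935 is the highest in both tissues, and the 6 gray lines are flatter than the 3 green ones.

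Aco013935 was the leading MDH gene in both tissues. Its level was 845 FPKM in the tip, where 115 genes of the matrix lay above it, and 251 FPKM in the base, where 304 genes did. It was therefore an abundant transcript also in the tissue that does not photosynthesize. It supplied 50.2% of the MDH sum of the tip and 40.7% of that of the base. Its FPKM differed 3.37-fold, and its log2 ratio of tip to base, calculated on FPKM + 1, was 1.75.

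Aco004996 differed the most between the tissues among the 9 genes. It was listed at 326 FPKM in the tip and at 16.8 FPKM in the base, a 19.4-fold difference and a log2 ratio of 4.20. Among the 18372 genes whose mean exceeded 0.5 FPKM, 201 had a larger log2 ratio. In the tip it was the second MDH gene and supplied 19.4% of the sum, whereas in the base it was the seventh with 2.73%. Its share thus differed by 16.7 percentage points, more than that of any other of the 9 genes.

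Aco010232 showed a like difference of smaller size. Its FPKM was 267 in the tip and 52.0 in the base, 5.14-fold apart, with a log2 ratio of 2.34. Its share of the MDH sum was 15.9% in the tip and 8.45% in the base. Aco004996 and Aco010232 together supplied 35.3% of the MDH sum in the tip against 11.2% in the base.

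The differences of these 3 genes were unequal. The ratio of tip to base was 5.77 times as large for Aco004996 as for Aco013935, and 3.78 times as large as for Aco010232. It was 1.52 times as large for Aco010232 as for Aco013935. Such a ratio of ratios is the same under any factor that multiplies a whole tissue column. In the base Aco013935 was 14.9-fold above Aco004996, and in the tip 2.59-fold.

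Aco007734 and Aco006122 were the second and the third MDH gene of the base. Aco007734 had 123 FPKM there and 69.6 FPKM in the tip, and its log2 ratio of -0.81 was the lowest of the 8 that were calculated. It supplied 20.0% of the MDH sum in the base and 4.14% in the tip. Aco006122 was nearly level on the deposited scale, at 92.1 FPKM in the base and 84.7 FPKM in the tip, with a log2 ratio of -0.12. Since the MDH sum of the base was the smaller one, it supplied 15.0% there and 5.03% in the tip. Together they supplied 35.0% of the sum in the base and 9.17% in the tip, so that in share they stood opposite to Aco004996 and Aco010232.

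**Figure D2:**
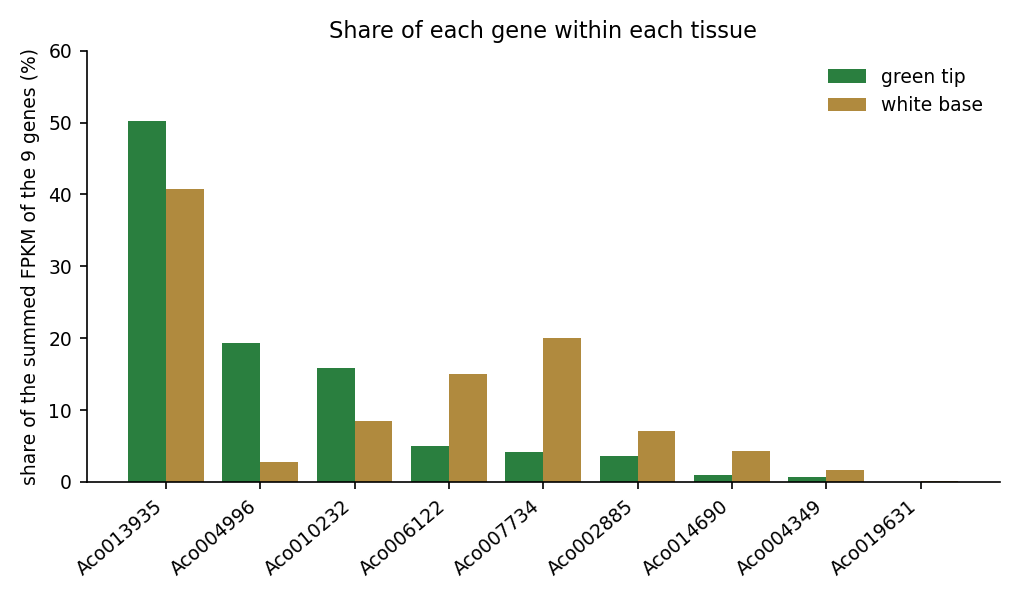
Share of each gene (horizontal axis) in the summed FPKM of the 9 MDH genes, in percent (vertical axis), with 1 bar for the green tip and 1 for the white base, each from 1 deposited value. Aco013935, Aco004996 and Aco010232 have the taller green bar, and the share of Aco007734 is 20.0% in the white base but 4.14% in the green tip.

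Aco002885, Aco014690 and Aco004349 were expressed at lower levels. Aco002885 had 60.7 FPKM in the tip and 43.4 FPKM in the base, a log2 ratio of 0.47. Aco014690 was lower in the tip, at 16.8 FPKM against 26.4 FPKM, a log2 ratio of -0.62. Aco004349 was nearly level, at 11.6 FPKM in the tip and 10.4 FPKM in the base, with a log2 ratio of 0.15. All 3 took a smaller share of the MDH sum in the tip than in the base, 3.61% against 7.06%, 0.998% against 4.29% and 0.692% against 1.69%.

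Aco019631 had 0.317 FPKM in the tip and 0.344 FPKM in the base. Both values are under 0.5 FPKM, the level above which the study takes a gene as expressed, and no log2 ratio is given for it. In the tip 17745 genes of the matrix lay above it. In the same tissue Aco013935 was 2669-fold higher, which is the span of the 9 genes.

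The order of the 9 genes was only partly shared by the tissues. From high to low it ran Aco013935, Aco004996, Aco010232, Aco006122, Aco007734, Aco002885, Aco014690, Aco004349 and Aco019631 in the tip. In the base it ran Aco013935, Aco007734, Aco006122, Aco010232, Aco002885, Aco014690, Aco004996, Aco004349 and Aco019631. The first gene and the last 2 kept their place, and Spearman's rho across the 9 genes was 0.683. The 9 points share the same 2 columns and are genes, not replicates. Several neighbours were close, and in the tip Aco004996 was 1.22-fold above Aco010232, Aco006122 1.22-fold above Aco007734, and Aco007734 1.15-fold above Aco002885. In the base Aco010232 was 1.20-fold above Aco002885. Without replicates it cannot be said which neighbours differ.

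The MDH sum was concentrated on fewer genes in the tip. The effective number of genes, which is 9 when all have the same level and 1 when a single gene supplies everything, was 3.12 in the tip and 4.11 in the base. The 3 highest genes of each tissue held 85.5% of the sum in the tip and 75.7% in the base. Leaving out Aco013935 gave effective numbers of 3.61 and 4.53 and a 2.30-fold difference of the sums.

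Of the 8 genes whose mean exceeded 0.5 FPKM, 3 were 2-fold or more higher in the tip on FPKM + 1, as were 17.2% of all 18372 genes. None of the 8 was 2-fold or more higher in the base, as were 20.7% of all genes. The other 5 lay within 2-fold, between -0.81 and 0.47 on the log2 scale. The median log2 ratio of the 8 genes was 0.31, beside -0.0095 over all genes. The 2-fold criterion carries no test.

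**Figure D3:**
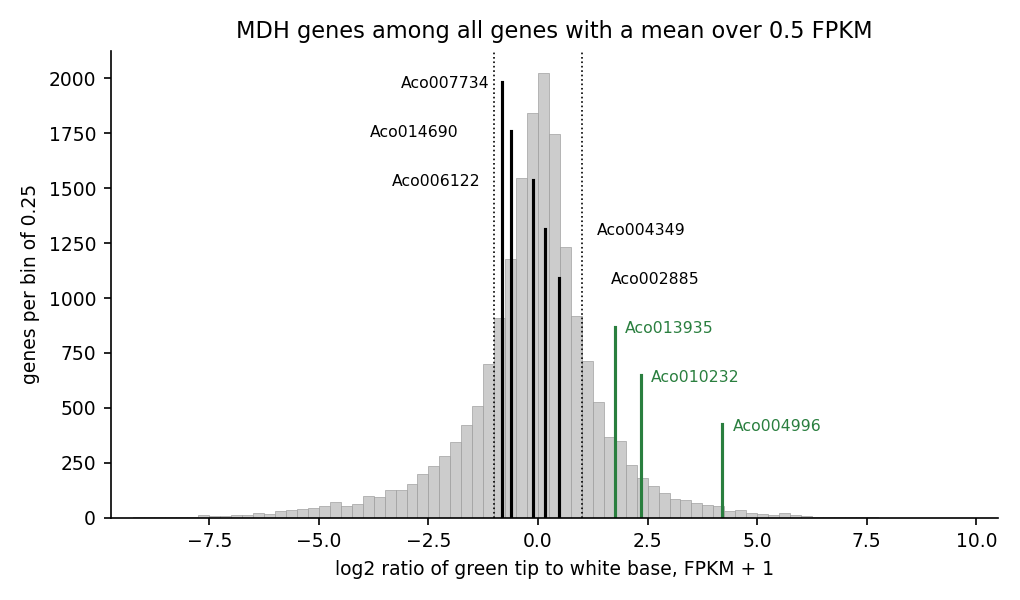
Distribution of the log2 ratio of tip to base on FPKM + 1 (horizontal axis) over the 18372 genes whose mean exceeded 0.5 FPKM, as genes per bin of 0.25 (vertical axis). Solid lines mark 8 MDH genes, with line heights set only for legibility, and dotted lines mark 2-fold, so that 5 genes sit in the central mass and Aco013935, Aco010232 and Aco004996 on the green tip side at 1.75, 2.34 and 4.20.

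The scaling of the tissue columns decided the direction or the side of 2-fold for 6 of these genes. Median-of-ratios scaling, which sets each column by its median ratio to a common reference, changed neither for any of the 8. It shifted the log2 ratio of tip to base by -0.013. All 6 changed when each column was rescaled to the same sum of 1000000, the scale known as TPM. Aco004996 and Aco010232 still passed 2-fold on the tip side, at log2 ratios of 3.34 and 1.46, and Aco013935 was within 2-fold at 0.86. Aco007734, Aco014690 and Aco006122 then passed 2-fold on the base side, at -1.70, -1.49 and -1.01. Of all genes 8.97% passed 2-fold on the tip side and 42.0% on the base side under this scaling, so that 3 of 8 on the base side is near the share of all genes. Aco002885 and Aco004349 turned to the base side, at -0.40 and -0.68.

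On the TPM scale the 9 genes together supplied 0.148% of the tip column and 0.101% of the base column, a 1.47-fold difference. The 6 genes other than Aco013935, Aco004996 and Aco010232 supplied 0.0214% and 0.0484%. TPM rescaling moved the median over all genes tested to a log2 ratio of -0.80 and that of the 8 MDH genes to -0.54. The MDH median thus lay above the median of all genes by 0.26, and by 0.32 as deposited.

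The 100 highest genes take part in that rescaling. Each column was therefore also rescaled by its sum outside the 100 highest genes of either tissue, a setting added after the data were seen. The same 3 genes passed 2-fold on the tip side, as did 14.8% of all genes, and none did on the base side, as did 23.5%. Aco013935 was at 1.57 and Aco007734 at -0.995, just within 2-fold, while Aco004349 was at -0.018. With quantile normalization Aco007734 passed 2-fold on the base side at -1.05, and Aco013935 was at 1.19. The log2 ratio of Aco004996 was between 3.34 and 4.27 in all settings run.

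**Figure D4:**
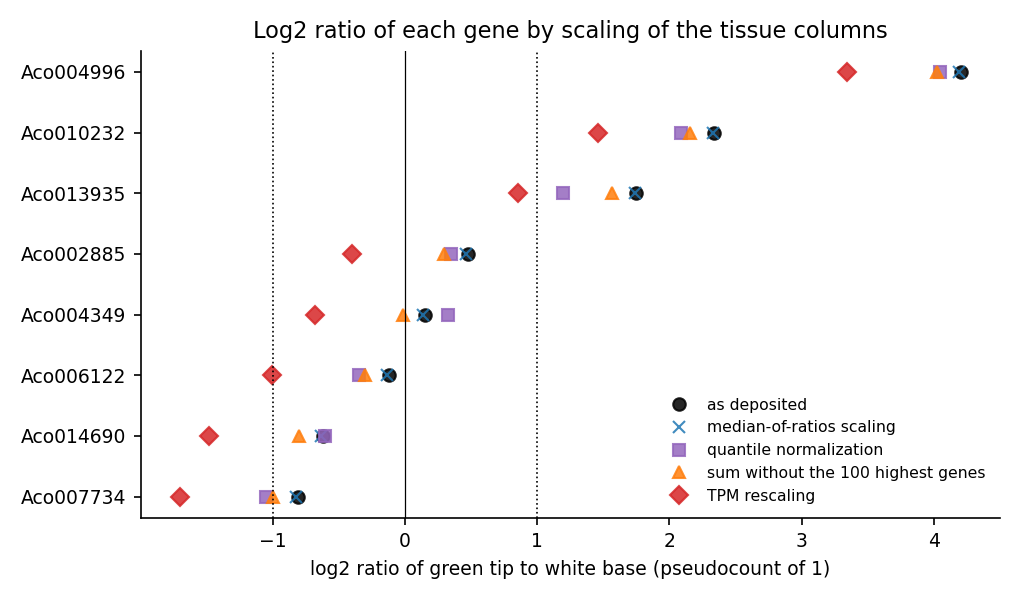
Log2 ratio of tip to base with a pseudocount of 1 (horizontal axis) for 8 MDH genes (vertical axis), with 1 symbol for each scaling of the tissue columns and dotted lines at 2-fold. TPM rescaling moves every gene toward the white base, and Aco004996 and Aco010232 stay beyond 2-fold on the green tip side under each scaling drawn, as Aco013935 does except under TPM.

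The other 5 MDH genes of the list together had 173 FPKM in the tip and 126 FPKM in the base. Of these, Aco017528 passed 2-fold on the tip side as deposited, with a log2 ratio of 1.65, and the other 4 were within 2-fold. With all 14 MDH genes the sum was 1855 FPKM in the tip and 741 FPKM in the base, and Aco013935 supplied 45.6% and 33.8% of it.

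PEPC and malic enzyme, the enzymes before and after MDH in the CAM cycle, were each led by a single gene. Of the 5 PEPC genes, which supply the oxaloacetate, Aco010025 held 83.9% of the PEPC sum in the tip and 57.2% in the base. The effective number of PEPC genes was 1.40 in the tip against 2.59 in the base. Of the 5 malic enzyme genes, which decarboxylate malate, Aco005631 held 88.5% of the sum in the tip and 58.2% in the base. In MDH, PEPC and malic enzyme alike, the same gene was the highest in both tissues, and it held a larger share in the tip. The same was true of pyruvate orthophosphate dikinase (98.6% against 61.9%) and of the alpha (99.7% against 67.2%) and gamma carbonic anhydrases (72.3% against 71.0%). It was not true of the beta carbonic anhydrases or of PEPC kinase. How far the families differ in this was not tested.

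The sums of the PEPC and malic enzyme genes differed less between the tissues than that of the 9 MDH genes. PEPC genes summed to 755 FPKM in the tip and 419 FPKM in the base, 1.80-fold apart, and malic enzyme genes to 189 and 134 FPKM, 1.41-fold apart. Both are below 1.86, the value for all genes summed, while the 2.74 of MDH is above it. That value includes the 100 most abundant genes, which made up 50.0% of the tip total and 18.7% of the base total. On the log2 scale the sums of MDH, PEPC and malic enzyme differed by 1.45, 0.85 and 0.50. All are above -0.0095, the median log2 ratio over all genes, though this is a median of single genes and not of sums. Pyruvate orthophosphate dikinase (PPDK) regenerates phosphoenolpyruvate from the pyruvate that malic enzyme leaves. Its 2 genes summed to 402 and 9.39 FPKM, 42.8-fold apart and so further than MDH. The sums of the beta and alpha carbonic anhydrases were 14.4-fold and 6.83-fold higher in the tip. Those of PEPC kinase and the gamma carbonic anhydrases were 4.02-fold and 1.10-fold higher in the base.

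Outside the MDH family, 20 genes of the list had a mean above 0.5 FPKM, of which 7 passed 2-fold on the tip side and 6 on the base side. Each of the PEPC, PEPC kinase, malic enzyme, gamma and alpha carbonic anhydrase families held at least 1 gene past 2-fold on the base side. In the PEPC kinase, gamma and alpha carbonic anhydrase families that gene was low, at 8.29, 5.58 and 1.89 FPKM in the base. The beta carbonic anhydrase and PPDK families held none. The 13 MDH genes above the same level held none as deposited, where 20.7% of all genes passed. After TPM rescaling 3 of the dispersed genes passed there, as did 42.0% of all genes. The median log2 ratio of the 20 genes was 0.14, with values from -3.48 to 6.52.

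**Figure D5:**
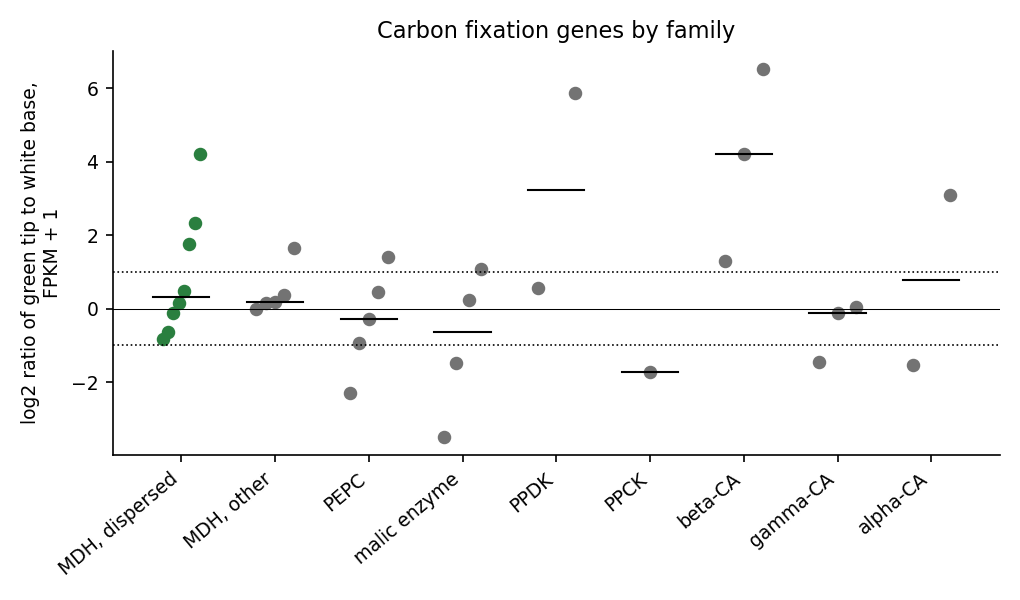
Log2 ratio of tip to base on FPKM + 1 (vertical axis) in each family of the study's qRT-PCR list (horizontal axis), with 1 point per gene whose mean exceeded 0.5 FPKM, a black bar at the family's median and dotted lines at 2-fold. The dispersed MDH genes, in green, run from -0.81 to 4.20, and the PEPC, PPCK (PEPC kinase), malic enzyme, gamma-CA and alpha-CA families (CA, carbonic anhydrase) reach below -1.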

How the data were processed

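RNA-seq of 2 libraries per tissue was used; the 4 bisulfite libraries were not analysed here. The authors deposited FPKM values in 3 columns: green tip, white base and their mean. The submitters' processing notes name TopHat2 2.1.0, Cufflinks and Cuffdiff 2.2.1, whereas the methods name Trimmomatic, HISAT2, uniquely mapped reads and StringTie. Which of these made the matrix, the genome build and how libraries were combined into 1 value are not given in the sources used here. Reads shared by near-identical MDH genes may therefore have been discarded or divided.

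Log2 ratios were calculated on FPKM + 1 where the mean of the tissues exceeded 0.5 FPKM, and 2-fold or more was counted. With 1 value per tissue no test, interval or detection limit was possible. Depth was sought from a common step in low values: of 226 genes averaging under 0.1 FPKM but listed above 0 in each column, at most 13 shared a bin of 0.01 in the log2 ratio, which did not settle it. Shares, sums and the effective number of genes (1 over the sum of squared shares) used FPKM directly.

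All 9 dispersed genes are named; other families of the list are given by sums, counts and leading genes. The genes and lists were chosen with earlier results of these data known. Aco017528, the leading genes of other families and the setting without the 100 highest genes were chosen after their values were seen. Alternatives were TPM, median-of-ratios and quantile scaling, 0.1 as pseudocount, a filter at 1 FPKM or none, a criterion of 1.5-fold, all 14 MDH genes, and leaving out Aco013935. None of the gene identifiers matched the RefSeq gene table, so no sequence or coordinate is given. Python 3.11.15, numpy 2.4.6, pandas 2.3.3, scipy 1.17.1 and matplotlib 3.10.9 were used. The 2-fold counts were tested on simulated data without rescaling, with median-of-ratios scaling and with scaling without the 100 highest genes. TPM and quantile scaling, shares, sums and effective numbers were not tested on simulated data.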

Additional observations from a re-analysis of the deposited data

How the results depend on the processing

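No paired analysis was possible because each tissue has a single value per gene, and no library could be left out. Of the 8 genes with a log2 ratio, Aco004996 and Aco010232 kept their direction and their side of 2-fold in all settings run. TPM rescaling lowers every ratio of tip to base. Under it 3 MDH genes passed 2-fold on the base side (0 as deposited), the MDH median was reversed to -0.54, and Aco002885 and Aco004349 were reversed to -0.40 and -0.68. The MDH sums differed 1.47-fold, and over all genes 1648 passed 2-fold on the tip side and 7725 on the base side, against 3169 and 3812. Aco004349 was also reversed, to -0.018, by scaling without the 100 highest genes. Quantile normalization put 1 MDH gene past 2-fold on the base side. A criterion of 1.5-fold put 2 MDH genes and 5486 of all genes on the base side, and 3 MDH genes and 4848 of all genes on the tip side. Median-of-ratios scaling, the pseudocount and the filters left the direction and side of all 8 genes as they were, which for the filters follows from their construction. Without Aco013935 the shares of the other 8 genes in both tissues moved by more than 1.5 times, since the sum is then smaller, and with all 14 MDH genes none did.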
